A study of Mus musculus with 2 samples.

Results

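Amacrine cells of the neonatal mouse retina were examined in single-cell RNA sequencing data from 1 Alk1 ECKO library and 1 control library. A barcode was taken as an amacrine cell, called a member here, when it held at least 1 UMI for at least 3 of 8 genes: Tfap2a, Tfap2b, Gad1, Gad2, Slc6a9, Slc32a1, C1ql1 and C1ql2. A UMI, or unique molecular identifier, stands for 1 captured RNA molecule. Barcodes had to hold at least 1000 UMIs and 500 genes, with 1 to 10% of UMIs from mitochondrial genes. This gave 27 members among 2764 retained Alk1 ECKO cells and 251 members among 7583 retained control cells, 278 of 10347 in all. The files held 14047 barcodes.

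The Alk1 ECKO library came from Alk1f/f mice that also carried Cdh5 CreERT2, a tamoxifen-inducible Cre recombinase driven by a promoter of endothelial cells. The control library came from Alk1f/f mice, so both groups carried the floxed Alk1 allele. All retinas were taken at postnatal day 6, dissociated and enriched for endothelial cells with CD31 beads, so amacrine cells were not the cells selected for and their yield was not measured. Neither the strain nor the number of animals nor the timing of Cre induction is stated in the labels. The promoter that drives Cre is endothelial and not neuronal. There was 1 library per genotype and therefore no replicate check: every difference is one between these 2 libraries, no test was made, and each 95% interval covers counting error only.

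Amacrine cells are the inhibitory interneurons of the inner retina. They shape the signals that bipolar cells pass to retinal ganglion cells, and most of them release GABA or glycine. The AP-2 transcription factors TFAP2A and TFAP2B mark and help specify them downstream of PTF1A, GAD1 and GAD2 make GABA, SLC6A9 is the glycine transporter GlyT1, and SLC32A1 loads GABA or glycine into synaptic vesicles.

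The 2 libraries held 62728605 UMIs in Alk1 ECKO and 54800465 UMIs in control. Members held 295666 UMIs in Alk1 ECKO, with a median of 6885 per cell, and 3479881 UMIs in control, with a median of 8642. The libraries shared 20 cell barcodes, and 0 of them belonged to a member. Acvrl1, which encodes ALK1 (ENSMUSG00000000530, chromosome 15, 101128522 to 101145336 in mm10), had 2 UMIs in Alk1 ECKO members and 18 UMIs in control members. In cells with at least 3 endothelial markers it stood at 115.8 CPM (112.7 to 118.9) in Alk1 ECKO and 115.0 CPM (108.7 to 121.7) in control. CPM is the summed UMIs of a gene per 1000000 UMIs of the same cells. Where the 3′ end read here lies beyond the floxed exons, its level is no check of recombination.

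Members were a smaller share of the Alk1 ECKO library. They made up 0.977% of retained Alk1 ECKO cells (0.645 to 1.42) and 3.31% of retained control cells (2.92 to 3.74, exact Clopper-Pearson intervals, as for every share interval below). Endothelial cells took a larger part of the Alk1 ECKO library, with 1284 of its retained cells against 317 in control. Without them the share was 1.82% (1.21 to 2.64) in Alk1 ECKO and 3.45% (3.05 to 3.90) in control. Over cells with neuronal markers only, it was 4.43% (2.94 to 6.38) of 610 Alk1 ECKO cells and 5.15% (4.55 to 5.81) of 4875 control cells, intervals that overlap. The bead enrichment bears on these shares, and its part in them was not tested.

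The 8 genes of the rule chose the cells, so their levels are a description. Tfap2b (ENSMUSG00000025927, chromosome 1, 19208914 to 19238576) was the highest of them, at 1106 CPM in Alk1 ECKO members and 631 CPM in control members. Tfap2a (ENSMUSG00000021359, chromosome 13, 40715302 to 40738376) stood at 247 CPM in Alk1 ECKO and 144 CPM in control. The GABA-synthesising enzymes were at similar levels in both libraries: Gad1 (ENSMUSG00000070880, chromosome 2, 70553072 to 70602014) had 87.9 CPM in Alk1 ECKO and 77.6 CPM in control. Gad2 (ENSMUSG00000026787, chromosome 2, 22622205 to 22693874) had 128.5 CPM in Alk1 ECKO and 133 CPM in control. Slc32a1 (ENSMUSG00000037771, chromosome 2, 158610767 to 158615748) was at 250.3 CPM in Alk1 ECKO and 105 CPM in control, with a UMI in 23 of 27 and 186 of 251 members.

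The glycine transporter gene went the other way. Slc6a9 (ENSMUSG00000028542, chromosome 4, 117834506 to 117875198) was at 27.1 CPM in Alk1 ECKO members, where 4 of 27 cells held it, and at 65.5 CPM in control members, where 104 of 251 held it. C1ql1 and C1ql2 encode secreted C1q-like proteins that organise synapses. C1ql1 (ENSMUSG00000045532, chromosome 11, 102939264 to 102946688) was at 490.4 CPM in Alk1 ECKO, with 35.2% of its UMIs in 1 cell, and 190.5 CPM in control. C1ql2 (ENSMUSG00000036907, chromosome 1, 120340582 to 120343174) was at 105 CPM in Alk1 ECKO and 147 CPM in control. Pax6, a transcription factor of retinal progenitors and amacrine cells that the rule did not use, had a log2 ratio of 0.06 (-0.19 to 0.30) of Alk1 ECKO over control, with a UMI in 25 of 27 and 240 of 251 members. The next log2 ratios are for members without 3 markers of another cell class. C1ql1 had 0.28 (-0.07 to 0.62) and C1ql2 -1.01 (-1.63 to -0.45). Tfap2a had 0.53 (0.11 to 0.93), Tfap2b 0.42 (0.23 to 0.61) and Slc32a1 0.88 (0.41 to 1.33). Gad1 had -0.48 (-1.24 to 0.20), Gad2 -0.25 (-0.98 to 0.39) and Pax6 -0.27 (-0.60 to 0.05). Slc6a9 was at 0 CPM there in Alk1 ECKO and 42.5 CPM in control.

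**Figure D1:**
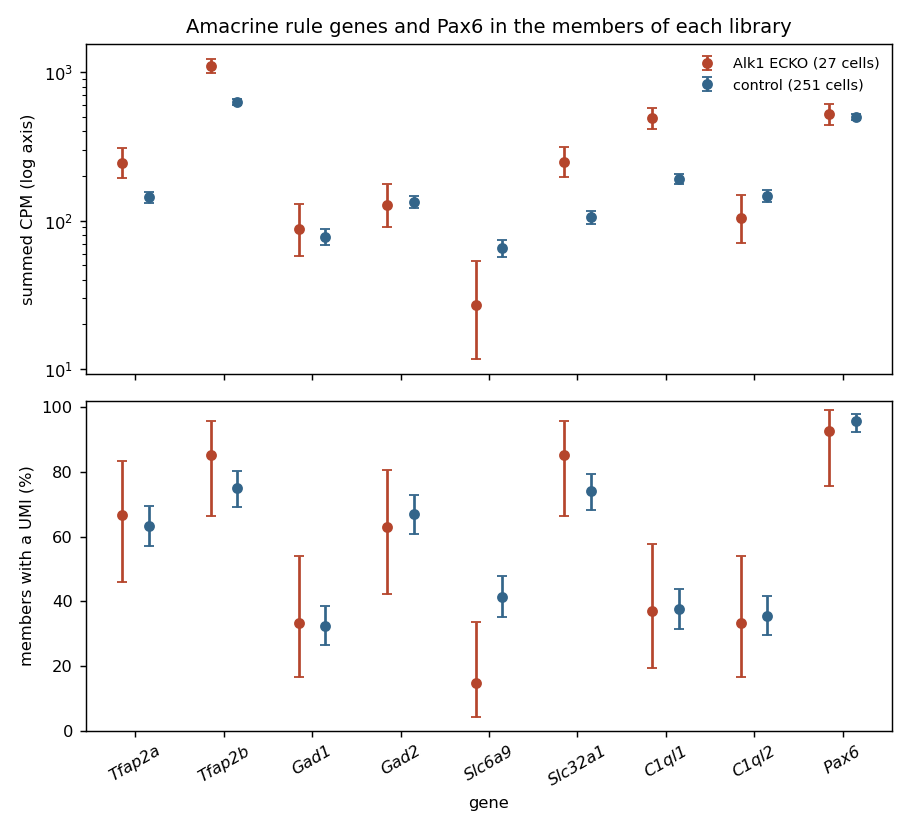
Summed CPM on a log axis with exact Poisson 95% intervals (top) and the percentage of members with at least 1 UMI with Clopper-Pearson 95% intervals (bottom) for the 8 rule genes and Pax6 in 27 Alk1 ECKO members (left of each pair) and 251 control members. Tfap2b leads in both libraries, and Slc6a9 is detected in 14.8% of Alk1 ECKO members and 41.4% of control members.

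Background differed between the rule genes. Gad1 lay at or below 0.727 CPM and Slc32a1 at or below 1.32 CPM in control bipolar cells, rods, Müller glia and endothelial cells, each chosen by at least 3 detected markers. Gad2 and Slc6a9 were less exclusive. Gad2 reached 37.1 CPM in control Müller glia, in 18.3% of cells at a median of 6190 UMIs, and Slc6a9 reached 50.3 CPM in control rods, in 20.2% of cells at a median of 2883 UMIs. In the 17 control horizontal cells Gad2 was at 96.4 CPM and Tfap2b at 72.3 CPM, each in 2 cells. Gad1 and Slc32a1 had 0 UMIs in them. C1ql1 was at 36.5 CPM in Alk1 ECKO and 11.1 CPM in control Müller glia. Slc6a9 was held by 41.4% of control members at their median of 8642 UMIs. In control endothelial cells, at a median of 19457 UMIs, Slc6a9 stood at 1.13 CPM and Gad2 at 0.188 CPM.

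The threshold of 3 genes cut through a continuous range. Exactly 3 rule genes were detected in 11 Alk1 ECKO and 94 control members, and exactly 2, just outside, in 17 Alk1 ECKO and 189 control cells. Pax6 was at 473 CPM in Alk1 ECKO and 399.9 CPM in control cells just inside, and at 75.6 CPM and 238 CPM in Alk1 ECKO and control cells just outside. Müller glia also held Pax6, at 266 CPM in 64.8% of Alk1 ECKO cells and 332 CPM in 75.6% of control cells. Its presence therefore does not tell members from Müller glia. Elavl3, which encodes a neuronal RNA-binding protein, was at 338 CPM in Alk1 ECKO and 323 CPM in control just inside, and at 75.6 CPM and 144 CPM just outside. At the top, 4 Alk1 ECKO and 15 control members held 7 of the 8 genes, and 0 held all 8.

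The label held for part of the members only. Of the 27 Alk1 ECKO members, 9 also held at least 3 markers of another cell class, and so did 107 of the 251 control members. Those cells had a median of 17909 UMIs in Alk1 ECKO and 17460 in control, against 4872.5 and 6655.5 in the other members of the same libraries. The rule genes took a median of 737 CPM per cell in the marked cells and 4584 CPM in the others in Alk1 ECKO, and 604 CPM and 2854.3 CPM in control. At least 3 rod markers were held by 4 Alk1 ECKO and 89 control members, 3 horizontal cell markers by 4 and 45, 3 bipolar markers by 2 and 47, and 3 Müller glia markers by 3 and 46. Müller glia markers summed to 4670.8 CPM in Alk1 ECKO and 631 CPM in control, of which Apoe alone held 4501.7 CPM and 402 CPM. Glul was also higher in Alk1 ECKO, while Rlbp1, Slc1a3, Sox9 and Dkk3 were higher in control. Aqp4 and Abca8a had at most 1 UMI in either library. All 9 rod markers were detected in members of both libraries, and their summed level was 3558.1 CPM in Alk1 ECKO and 5869.7 CPM in control. No doublet caller was run, and results are given below with and without the marked cells, which leaves 18 Alk1 ECKO and 144 control members.

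Microglial RNA was present in a few members. At least 3 of 8 microglial markers were held by 3 Alk1 ECKO and 2 control members, and the summed level of the list was 4917.7 CPM in Alk1 ECKO and 92.2 CPM in control. It was 0 in 22 of 27 Alk1 ECKO and 246 of 251 control members. These 3 Alk1 ECKO cells held 5 to 32 rule-gene UMIs each. Mural markers were nearly absent, with a summed 3.38 CPM in Alk1 ECKO and 0.862 CPM in control, and 3 ganglion cell markers were held by 1 Alk1 ECKO and 2 control members. The 8 horizontal cell markers summed to 1045.1 CPM in Alk1 ECKO and 312 CPM in control members, of which Tpm3 alone held 578 CPM and 132 CPM. Tpm3 had UMIs in 19 Alk1 ECKO and 161 control members. Among the other horizontal markers the transcription factor gene Onecut2 had UMIs in 10 Alk1 ECKO and 117 control members, and Lhx1 in 1 and 2, each of which also held Onecut1.

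The members were set against 6 other classes: horizontal, bipolar, rod, Müller glia, retinal ganglion and endothelial cells. Cones were not among them, and ganglion cells numbered 3 in control and 0 in Alk1 ECKO. Outside the rule, the 20 leading genes were ranked by control CPM over the mean of these classes with 10 CPM added to both. The first was Cartpt, the precursor of the CART neuropeptide (ENSMUSG00000021647, chromosome 13, 99898489 to 99901091), at 230.0 CPM in Alk1 ECKO and 611 CPM in control members. Only 3 of 27 and 27 of 251 members held it, so it marks a subset. Crabp1, which encodes a cellular retinoic acid-binding protein, was broader, at 514 CPM in 18 of 27 Alk1 ECKO members and 325 CPM in 104 of 251 control members. Cxcl14, a chemokine gene, was at 169 CPM in Alk1 ECKO and 131 CPM in control. Syt6, a synaptotagmin gene, was at 152 CPM in Alk1 ECKO and 58.9 CPM in control. Lpl, which encodes lipoprotein lipase, was at 206 CPM in Alk1 ECKO and 58.3 CPM in control. Necab1, which encodes a neuronal calcium-binding protein, was held by 13 of 27 Alk1 ECKO and 129 of 251 control members. The list also held the transcription factor genes Lhx9 and Tfap2c, the potassium channel subunit gene Kcnip1, and Rd3l, AI593442, Lamp5, Tac1, Adarb2, Gm28050, Plppr5 and Gm14204. It went against the label in 3 places, since Pde6h, Opn1sw and Guca1a are cone and photoreceptor genes. They stood at 343, 162 and 119 CPM in control members and in 26, 30 and 21 of these cells.

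Gm14204 lies next to a rule gene. Its RefSeq start site is 35 bases from that of Slc32a1, on the opposite strand, and the windows from 250 bases before to 50 bases after each start share 134 bases. The Slc32a1 window is shown because both genes were detected in many of the same cells. It spans chr2:158610508-158610807 (GRCm38.p6, plus strand, RefSeq), and capitals mark the bases shared with the Gm14204 window.
Slc32a1: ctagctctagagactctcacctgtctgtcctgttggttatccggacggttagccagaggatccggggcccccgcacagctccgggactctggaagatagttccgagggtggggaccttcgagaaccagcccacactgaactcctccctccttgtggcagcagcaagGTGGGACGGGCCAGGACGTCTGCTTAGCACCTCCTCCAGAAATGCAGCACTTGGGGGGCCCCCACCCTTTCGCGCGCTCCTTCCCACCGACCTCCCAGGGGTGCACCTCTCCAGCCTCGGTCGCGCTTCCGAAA
Gm14204 had UMIs in 19 of 27 Alk1 ECKO and 129 of 251 control members. Of those control cells, 107 also held Slc32a1, which is 82.95% of the Gm14204 cells and 57.5% of the 186 Slc32a1 cells. In Alk1 ECKO the overlap was 16 cells, 84.2% of the Gm14204 cells and 69.6% of the Slc32a1 cells. Gm14204 was at 94.7 CPM in Alk1 ECKO members and 58.9 CPM in control members, against means of 0.786 CPM and 4.78 CPM over the other classes of the same libraries.

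Windows of the same kind were found for 7 of the 8 rule genes and 17 of the 20 leading genes, and searched for the AP-2 motif GCCNNNGGC, which reads the same on both strands. It was present in 1 of 10 rule-gene windows and 4 of 22 leading-gene windows, beside 16.6% of all 32851 windows. A match is a string of letters and not a shown binding site. The rule gene with a match was Gad2, the member of the GABA enzyme pair that also marked Slc6a9 cells below. Its window spans chr2:22622077-22622376 (GRCm38.p6, plus strand, RefSeq), with the 2 matches in capitals.
Gad2: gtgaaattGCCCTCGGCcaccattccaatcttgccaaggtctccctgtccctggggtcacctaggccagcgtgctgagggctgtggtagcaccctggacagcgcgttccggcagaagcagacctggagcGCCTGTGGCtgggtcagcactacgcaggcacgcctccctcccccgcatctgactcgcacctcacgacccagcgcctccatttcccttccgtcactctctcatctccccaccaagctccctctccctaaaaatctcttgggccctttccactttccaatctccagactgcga

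The members varied among themselves along a transmitter axis. In control, where numbers allow it, 81 members held Gad1 and 104 held Slc6a9, and 3 held both, which is 3.70% of the Gad1 cells and 2.88% of the Slc6a9 cells. Of the Slc6a9 cells 74 held at least 3 markers of another class and 68 at least 3 rod markers, against 11 and 4 of the Gad1 cells, and the part of these cells in the division was not tested. Without the marked cells 70 members held Gad1, 30 held Slc6a9 and 1 held both. With at least 2 UMIs required for each gene, 0 of 251 held both, which allows a share of up to 1.20% of cells with such counts by the limit of 3 counts of the total and 1.46% by the Clopper-Pearson bound. Gad2 did not follow this division. It was held by 81 of the 104 Slc6a9 cells (77.9%) and 46 of the 81 Gad1 cells (56.8%). C1ql1 and C1ql2 went with Gad1. C1ql2 was held by 63 of the 81 Gad1 cells and 4 of the 104 Slc6a9 cells, and C1ql1 by 61 and 9. The C1q-like genes overlapped each other in 75 cells, 79.8% of the C1ql1 cells and 84.3% of the C1ql2 cells. In Alk1 ECKO, 9 members held Gad1, 4 held Slc6a9 and 1 held both, and all 4 Slc6a9 cells held at least 3 markers of another class. Because a cell had to hold 3 of the 8 genes to be a member, overlaps between rule genes are partly fixed by the rule, and they are given without a test.

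**Figure D2:**
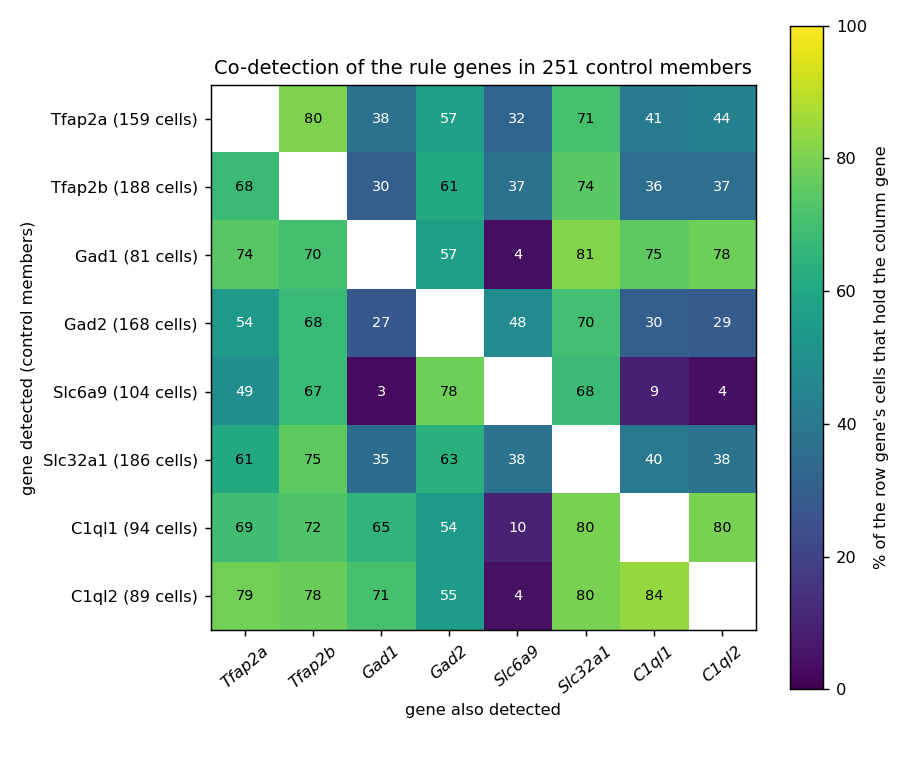
Co-detection of the 8 rule genes in 251 control members: each square gives the percentage of the cells with the row gene that also held at least 1 UMI of the column gene. Gad1 and Slc6a9 share few cells, while Gad2 was held by 77.9% of the Slc6a9 cells.

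By the simplest call, GABAergic cells hold Gad1 or Gad2 and no Slc6a9, and glycinergic cells hold Slc6a9 and neither Gad gene. In Alk1 ECKO, 15 of 27 members (55.6%, 35.3 to 74.5) were GABAergic, 0 glycinergic, 4 both and 8 neither. In control, 122 of 251 (48.6%, 42.3 to 55.0) were GABAergic, 23 (9.16%, 5.90 to 13.4) glycinergic, 81 (32.3%) both and 25 (9.96%) neither. Without the cells marked by another class "both" was 0.0% in Alk1 ECKO and 16.0% in control, and the glycinergic share was 0.0% in Alk1 ECKO and 4.86% in control. A count of 0 among 27 cells allows a share of up to 11.1% by the limit of 3 counts, or 12.8% by the Clopper-Pearson bound, so the control share of 9.16% lies within what the Alk1 ECKO count allows. The "both" class was the deepest, with a median of 27124 UMIs in Alk1 ECKO and 14214 UMIs in control. After each member was thinned to 2000 UMIs, which left out 1 Alk1 ECKO and 5 control cells, "both" held 1 of 26 cells in Alk1 ECKO and 4 of 246 in control. Thinning lowers the detection of every gene, so a fall of "both" was built in. The "neither" class rose to 15 of 26 cells (57.7%) in Alk1 ECKO and 134 of 246 (54.5%) in control. The part of depth in the "both" class was not tested. Thinned, glycinergic cells were 0 of 26 in Alk1 ECKO and 27 of 246 (10.98%) in control, and GABAergic cells 10 of 26 (38.5%) and 81 of 246 (32.9%).

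Sub-clustering all 278 members gave 8 groups, and the Gad1 and Slc6a9 axis ran between them. These groups were built from the same genes, so their levels describe them and are no test. Gad1 was at 228 to 303 CPM in sub-clusters 1, 3 and 5, with Slc6a9 at 14.4 CPM or less there. Slc6a9 was at 38.2 to 190 CPM in sub-clusters 2, 4, 6, 7 and 8, with Gad1 at 0.545 CPM or less. Gad2 was present in all 8, at 43.0 to 294 CPM. In sub-clusters 4 and 6 Slc6a9 stood at 169 and 190 CPM, and in sub-cluster 2 at 70.9 CPM, beside 50.3 CPM in control rods. Slc6a9 helped to choose the members and the rods are non-members, so a level above that of rods is partly fixed by the rule.

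Sub-cluster 1 (7 Alk1 ECKO and 52 control cells) was led by Tac1, the precursor of substance P, at 566 CPM, with Stmn2, a microtubule regulator of growing neurites, at 1996.8 CPM and C1ql1 at 955 CPM. Sub-cluster 3 (9 Alk1 ECKO and 36 control cells) was led by Cartpt at 7524.5 CPM in 20 of 45 cells, with the transcription factor gene Pou3f3. Tac1 and Cartpt were held together by 0 Alk1 ECKO cells and 1 control cell. Sub-cluster 5 (2 Alk1 ECKO and 27 control cells) was led by the transcription factor gene Maf at 1335.7 CPM and by Adarb2. Sub-cluster 4 (3 Alk1 ECKO and 36 control cells) had the nuclear factor I gene Nfib at 1606.3 CPM, Prox1 at 719 CPM and Ebf3 at 326 CPM, and 14 of its 39 cells held 3 rod markers. Sub-cluster 6 (4 Alk1 ECKO and 21 control cells) was led by Lamp5 at 1200.5 CPM, with Prox1 at 774 CPM and Nfib at 15.8 CPM.

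The other 3 sub-clusters carried markers of other classes. In sub-cluster 2 (2 Alk1 ECKO and 54 control cells; median 25805 UMIs), all 56 cells held at least 3 rod markers and 30 at least 3 cone markers, and Pde6h, Opn1sw and Guca1a led it. Tfap2b was at 96.0 CPM there, against 2032.2 CPM in sub-cluster 1. Sub-cluster 7 (0 Alk1 ECKO and 17 control cells) held 3 rod markers in 15 cells, with Lamp5 at 422 CPM. Sub-cluster 8 (0 Alk1 ECKO and 8 control cells) was led by the histone gene Hist1h1b and by Vim, the intermediate filament of glia and progenitors, at 2036.2 CPM. No sub-cluster was given a cell type name. The starburst enzyme gene Chat had UMIs in 0 Alk1 ECKO and 1 control member, Th in 0 and 6, and Slc17a8, the vesicular glutamate transporter VGLUT3, in 0 and 5, so these amacrine types could not be described.

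**Figure D3:**
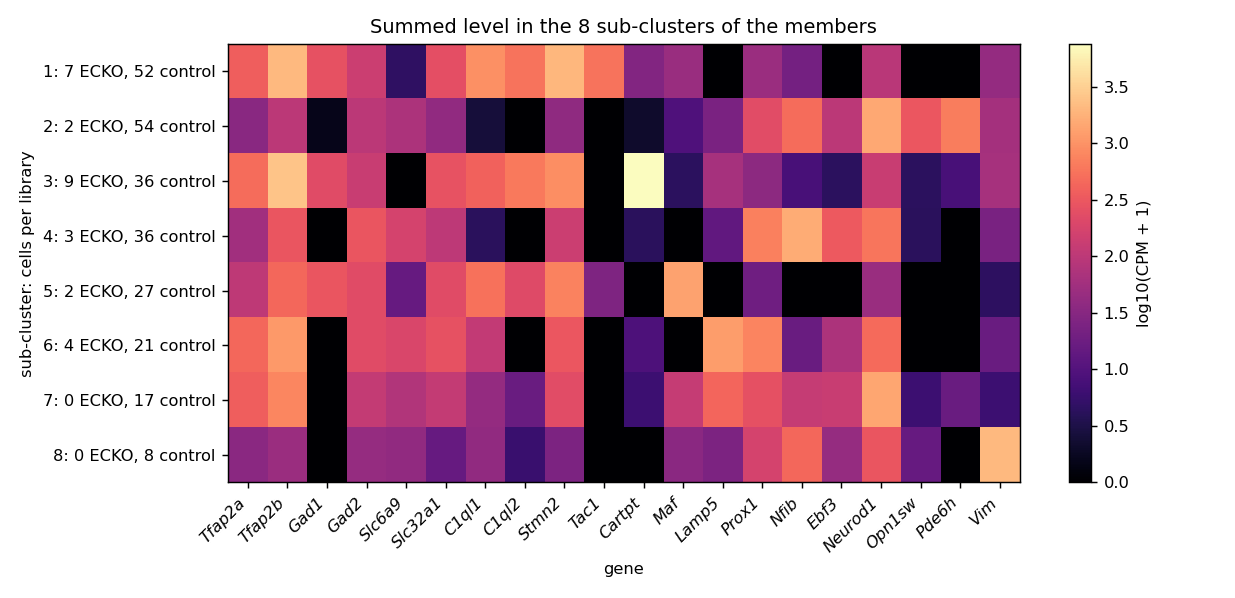
Summed level, as log10(CPM + 1), of 20 genes in the 8 sub-clusters of the members, with the number of Alk1 ECKO and control cells in each. Gad1 is high in sub-clusters 1, 3 and 5 and near 0 in the others, and the photoreceptor gene Pde6h reaches 665 CPM in sub-cluster 2.

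How glycinergic and GABAergic members differ beyond the defining genes was described in control alone, since Alk1 ECKO had 0 glycinergic cells. Over 8284 genes with at least 20 UMIs, 8.69% were over 2-fold higher in the 23 glycinergic cells and 11.9% over 2-fold lower than in the 122 GABAergic cells, and for 2.02% and 2.68% the whole interval lay beyond 2-fold. The 10 highest, led by Pf4, Ccl3, Ccl2 and C1qa, are known from microglia and macrophages, and at least 98.6% of the UMIs of each lay in 1 of the 23 cells. The 10 lowest had 0 UMIs in glycinergic cells, among them Pou3f3 with 84 UMIs in 23 GABAergic cells and Pcp4l1 with 124 UMIs in 42. Dividing by Gad1 alone gave larger groups, 101 members with Slc6a9 and no Gad1 and 78 with Gad1 and no Slc6a9. Of 9777 genes 18.6% were over 2-fold higher and 12.8% lower in the Slc6a9 cells, with whole intervals beyond 2-fold for 6.49% and 6.71%. The first group then led with photoreceptor genes such as Sag, which encodes rod arrestin, at 1739.5 CPM against 22.2 CPM. This division was therefore repeated in members without 3 markers of another class, a choice made after these values were seen.

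That left 29 control cells with Slc6a9 and no Gad1 and 69 with Gad1 and no Slc6a9, and transcription factor genes marked each side. Of 5743 genes, 5.78% were over 2-fold higher and 16.7% over 2-fold lower in the Slc6a9 cells, and for 1.08% and 2.25% the whole interval lay beyond 2-fold. Nfix, a nuclear factor I gene, had 917 CPM in the Slc6a9 cells (12 of 29 cells) and 0 UMIs in the 69 Gad1 cells. Nfib had 1084.5 CPM in the Slc6a9 cells and 9.05 CPM in the Gad1 cells. Prox1 (ENSMUSG00000010175, chromosome 1, 190118035 to 190170714), a homeobox transcription factor gene, had 695 CPM in 20 of 29 Slc6a9 cells and 12.7 CPM in 2 of 69 Gad1 cells, a log2 ratio of 5.78 (4.69 to 7.12). Tcf4, a bHLH factor gene, had 1755.5 CPM in all 29 Slc6a9 cells and 57.9 CPM in 17 of 69 Gad1 cells. Ebf3 had 269.6 CPM in 11 Slc6a9 cells and 1.81 CPM in 1 Gad1 cell, and Ebf1 had 389.5 CPM in 13 and 1.81 CPM in 1. Lamp5 (ENSMUSG00000027270, chromosome 2, 136052239 to 136069917) had 563 CPM in 14 Slc6a9 cells and 9.05 CPM in 2 Gad1 cells, and Prdm13, a zinc finger gene of amacrine fate, 282 CPM in 17 and 18.1 CPM in 4.

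Lower in the Slc6a9 cells were Maf, with 0 UMIs in 29 Slc6a9 cells and 329 CPM in 11 of 69 Gad1 cells, and Zfhx3, at 5.99 CPM in the Slc6a9 cells and 393 CPM in the Gad1 cells. C1ql1 stood at 47.9 CPM in 1 Slc6a9 cell and 802 CPM in 53 Gad1 cells. C1ql2 stood at 53.9 CPM in 1 Slc6a9 cell and 644 CPM in 55 Gad1 cells. Being rule genes, these 2 are descriptive only. Slc6a11, which encodes the GABA transporter GAT-3, had 0 UMIs in the Slc6a9 cells and 123 CPM in 34 Gad1 cells. Meis2, a homeobox gene, had 299.6 CPM in 12 Slc6a9 cells and 2014.7 CPM in 53 Gad1 cells. Id4, Nav2, Alcam, Cacna2d2, Syt6, Lpl and Rd3l were also lower in the Slc6a9 cells with whole intervals beyond 2-fold.

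By gene list, 13 of 30 measured amacrine transcription factor genes outside the rule were over 2-fold higher and 8 lower in the Slc6a9 cells. Over all 5743 genes 5.78% were higher and 16.7% lower. The list's median log2 ratio was 0.67, beside -0.16 over all genes. Genes reported for AII amacrine cells, the glycinergic type that carries rod signals, had 5 of 8 higher and 2 lower, with a median of 2.07. Among lists on the lower side, all 3 measured neuropeptide genes, 4 of 6 C1q-like, cerebellin and neurexin genes outside the rule, 14 of 19 adhesion genes, 4 of 8 GABA receptor subunit genes and 7 of 18 neuronal maturation genes were over 2-fold lower, and 0 of each were higher. The Slc6a9 cells were shallower, at a median of 5434 UMIs against 7921 UMIs in the Gad1 cells. Stmn2 was at 318 CPM in the Slc6a9 cells and 1283.4 CPM in the Gad1 cells. Sox11, a gene of immature neurons, was at 1312.2 CPM in the Slc6a9 cells and 163 CPM in the Gad1 cells, and Sox4 at 1821.4 CPM and 795 CPM. In all members the same lists had medians of 0.19 for transcription factors beside 0.10 over all genes, 0.61 for AII genes and -2.39 for neuronal maturation.

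**Figure D4:**
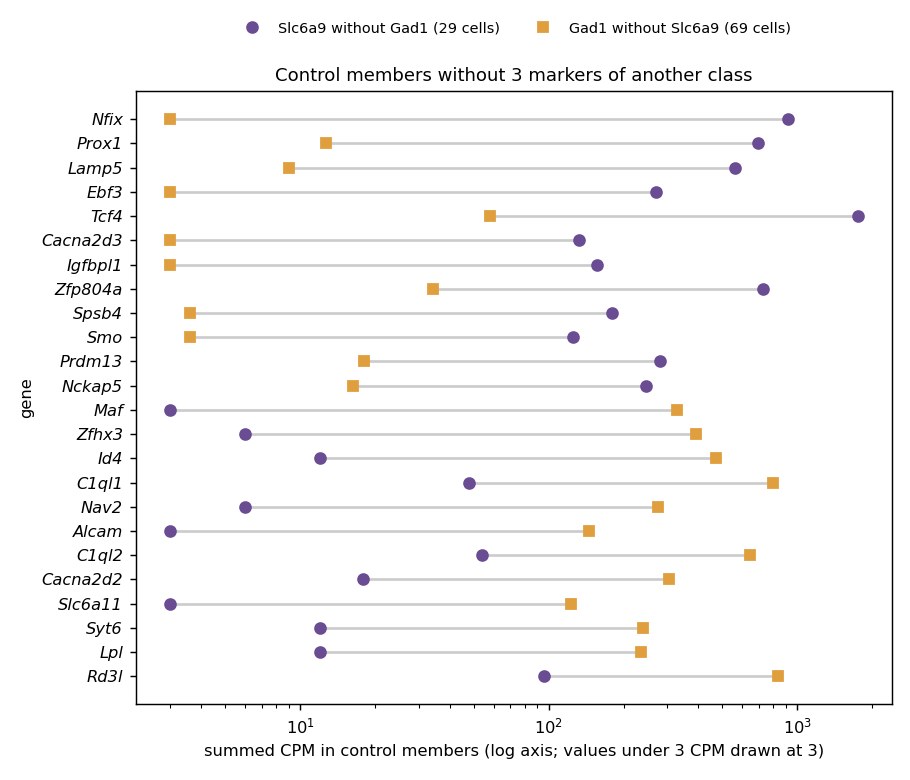
Summed CPM on a log axis of the 12 genes higher and the 12 genes lower in control members with Slc6a9 and without Gad1 (circles, 29 cells), against those with Gad1 and without Slc6a9 (squares, 69 cells), in members without 3 markers of another class. Nfix is at 917 CPM in the Slc6a9 cells and 0 in the Gad1 cells, and C1ql1 is at 47.9 CPM and 802 CPM.

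The comparison of Alk1 ECKO with control members rests on 27 Alk1 ECKO cells, and many of the largest ratios came from a few cells. Of 8835 genes with at least 50 UMIs over both libraries, 10.9% were over 1.5-fold higher and 30.5% over 1.5-fold lower in Alk1 ECKO members, around a median log2 ratio of -0.22. The whole interval lay beyond 1.5-fold for 2.56% on the higher and 2.58% on the lower side. The median was -0.15 in bipolar cells, -0.16 in rods and -0.20 in Müller glia. Without the members marked by another class it was -0.06 over 4345 genes. Relative to the median of -0.22, 1642 genes lay over 1.5-fold higher and 1896 lower, against 965 higher and 2692 lower without that shift. Ratios below are as measured, with each list's median also given relative to the median of all genes.

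The genes furthest up in Alk1 ECKO members were mostly held by the microglia-marked cells or by 1 cell. Aif1, Cx3cr1, Unc93b1 and Ctsh, genes of microglia and lysosomes, had UMIs in 3 of 27 Alk1 ECKO members each. Cx3cr1 was at 375 CPM in Alk1 ECKO and 10.9 CPM in control. Pyy, which encodes peptide YY, had 80 UMIs in 1 Alk1 ECKO cell and 0 UMIs in control. It was 314-fold higher against a floor of 3 counts in control, with a lower log2 interval bound of 7.96. Npy, the neuropeptide Y gene, had 138 UMIs in that same cell and 223 UMIs in 15 control members. Lhx1 had 29 UMIs in 1 Alk1 ECKO cell and 22 UMIs in 2 control cells, and Cxcl2 had 66 UMIs in 1 and 80 UMIs in 2. Trf, the transferrin gene, was at 152 CPM in 3 Alk1 ECKO and 14.4 CPM in 11 control members, and Gm2a, a lysosomal activator gene, at 71.0 CPM in 7 and 9.20 CPM in 30.

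Hddc3 and Mt1 were higher in the other classes too. Hddc3 (ENSMUSG00000030532, chromosome 7, 80343104 to 80350547) was at 81.2 CPM in Alk1 ECKO members and 8.62 CPM in control members, a log2 ratio of 3.235 (2.40 to 4.06), and it was held by 13 of 27 and 28 of 251 cells. Its ratio was 1.935 (0.96 to 2.84) in bipolar cells, 1.84 (1.46 to 2.21) in rods and 2.13 (1.70 to 2.57) in Müller glia. Mt1, a metallothionein gene, was at 264 CPM in 7 Alk1 ECKO members and 24.1 CPM in 38 control members, with 71.8% of the Alk1 ECKO UMIs in 1 cell. Its log2 ratio of 3.45 (2.99 to 3.91) stood beside 2.78 in bipolar cells, 2.29 in rods and 1.70 in Müller glia.

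The 12 genes furthest down had 0 UMIs in Alk1 ECKO members, so their ratios are bounds. A gene at 0 UMIs ranks below any gene with a UMI, whatever the bounds. Ptf1a (ENSMUSG00000026735, chromosome 2, 19445663 to 19447501), the transcription factor gene that sets amacrine and horizontal fate in precursors, had UMIs in 0 of 27 Alk1 ECKO members and 22 of 251 control members, where it was at 29.3 CPM. It was 2.89-fold lower against a floor of 3 counts in Alk1 ECKO, with an interval bound of -1.21 that counts each UMI as independent. By cells, 0 of 27 allows a share of up to 11.1% by the limit of 3 counts, or 12.8% by the Clopper-Pearson bound. The control share of 8.8% lies within what the Alk1 ECKO count allows. Tent4a had 0 UMIs in Alk1 ECKO members and 126 UMIs in 82 control members, 3.57-fold lower against this floor, with a bound of -1.52. Trmu had 0 UMIs and 108 UMIs in 78 cells, 3.06-fold lower, with a bound of -1.29. Mmd, Zfp763, Setd1a, Nup155, Dennd4c and Zfp810 were likewise spread over 61 to 71 control members. Chodl had 153 UMIs in 35 control members. When at least 2 rule genes were enough for a member, the log2 ratio of Mmd was -0.80 (-1.74 to 0.01). That interval spans no change. The ratio was then -1.49 (-2.64 to -0.53) for Chodl and -1.80 (-3.45 to -0.54) for Ptf1a. For Tent4a it was -2.71 (-4.60 to -1.33), and for Trmu -1.73 (-3.07 to -0.66). Ttr and Igf2 rested on few control cells, with 98.0% and 92.0% of their UMIs in 1 cell. In rods the log2 ratios were -0.62 for Tent4a, -0.11 for Trmu and -0.35 for Ptf1a, and in Müller glia -0.04, -0.38 and -0.56.

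Genes of neuronal maturation were higher in Alk1 ECKO members as a group, and this depended on which cells were counted. Of 18 measured genes, 11 (61.1%) were over 1.5-fold higher and 0 lower, beside 10.9% and 30.5% over all genes. The median log2 ratio was 0.74, or 0.96 relative to all genes. Stmn2 was at 1292 CPM in Alk1 ECKO and 392 CPM in control, a log2 ratio of 1.72 (1.55 to 1.88). Gap43, a growth cone gene, was at 436 CPM in Alk1 ECKO and 209 CPM in control, a log2 ratio of 1.06 that became -0.052 after thinning. Without the cells marked by another class the Stmn2 ratio was 1.04 (0.84 to 1.24). Nefl, a neurofilament gene, was at 145 CPM in Alk1 ECKO, with 62.8% of its UMIs in 1 cell, and 29.9 CPM in control. Elavl3 and Map2, pan-neuronal genes, had ratios of -0.11 (-0.41 to 0.17) and -0.25 (-0.57 to 0.05). The list's median was 0.08 in bipolar cells, -0.12 in rods and -0.17 in Müller glia. In members without 3 markers of another class it was 0.10, with 3 of 17 genes higher and 1 lower, and in members with at most 20000 UMIs it was 0.18. After thinning each cell to 2000 UMIs before members were chosen it was -0.034 over 12 genes, with 0 higher and 2 lower.

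Transcription factor genes lay in both directions. Of 36 measured outside the rule, 8 were over 1.5-fold higher and 18 lower, beside 10.9% and 30.5% over all genes. The median was -0.52, or -0.30 relative to all genes. It was -0.36 over 28 genes without the cells marked by another class and 0.27 over 6 genes after thinning. Nr4a2, an orphan nuclear receptor gene, had 40 UMIs in 6 Alk1 ECKO members and 87 UMIs in 34 control members, a log2 ratio of 2.44 (1.86 to 2.99) and 1.74 without the cells marked by another class. Lhx9 was at 152 CPM in Alk1 ECKO and 50.6 CPM in control, a log2 ratio of 1.59 (1.08 to 2.07). Lower were the neurogenic bHLH genes Neurod4, at 57.5 CPM in Alk1 ECKO and 369.6 CPM in control, and Neurod1, at 439.7 CPM and 952 CPM. Also lower were Nfib, at 87.9 CPM in Alk1 ECKO and 428 CPM in control, Sox11, at 199.5 CPM and 713 CPM, and Prox1, at 108 CPM and 243 CPM. Without the cells marked by another class the log2 ratio was -2.79 (-5.08 to -1.22) for Prox1, -2.05 for Nfib, -1.85 for Sox11 and -0.40 (-1.35 to 0.41) for Neurod1, and Neurod4 had 0 UMIs in Alk1 ECKO and 125 UMIs in control. After thinning it was 0.16 (-5.37 to 3.20) for Neurod4 and 0.080 (-2.32 to 1.84) for Prox1, and among members with Gad1 and without Slc6a9 it was 0.17 (-1.10 to 1.23) for Neurod1. Nfib was at 480.5 CPM in sub-cluster 2 and 1606.3 CPM in sub-cluster 4, which held 2 and 3 Alk1 ECKO cells and 54 and 36 control cells, and the part of this makeup in the ratios was not tested. The AII list had 1 of 8 genes higher and 4 lower, with a median of -0.79. That median was -0.57 relative to all genes, -0.40 without the cells marked by another class and 0.47 over 3 genes among members with Gad1 and without Slc6a9.

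The GABA and glycine lists were small. Of 4 measured genes for GABA synthesis, release and uptake outside the rule 2 were over 1.5-fold higher and 1 lower, beside 10.9% and 30.5% over all genes. Their median was 0.50, or 0.72 relative to all genes. Without the cells marked by another class 0 of 3 were higher and 1 lower, with a median of -0.39. Abat, which encodes the GABA-degrading transaminase, was at 27.1 CPM in Alk1 ECKO and 56.0 CPM in control, a log2 ratio of -1.05 (-2.28 to -0.04). Among glycine genes, the receptor subunit gene Glra2 was at 47.4 CPM in Alk1 ECKO and 49.4 CPM in control, and Gphn, the gephyrin scaffold of inhibitory synapses, at 54.1 CPM and 71.0 CPM. Of 8 GABA receptor subunit genes 2 were higher and 1 lower, with a median of 0.41, or 0.63 relative to all genes and -0.10 without the cells marked by another class. The synaptic organiser genes Cbln1 and Cbln2 were higher, Cbln1 at 60.9 CPM in 8 Alk1 ECKO and 14.1 CPM in 26 control members, a log2 ratio of 2.11 (1.25 to 2.92). Cbln2 was at 135 CPM in 10 Alk1 ECKO and 41.4 CPM in 40 control members, a log2 ratio of 1.71 (1.17 to 2.22) and 1.11 without the cells marked by another class.

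Amacrine and horizontal cells are known as sources of VEGF for the retinal vessel layers. Vegfa (ENSMUSG00000023951, chromosome 17, 46016993 to 46032369) was at 16.9 CPM in 5 of 27 Alk1 ECKO members and 55.8 CPM in 93 of 251 control members, a log2 ratio of -1.72 (-3.36 to -0.47). It was -0.08 without the cells marked by another class, and 0.03 in bipolar cells, 0.20 in rods and 0.74 in Müller glia. Hif1a was at 477 CPM in Alk1 ECKO and 684 CPM in control. Of 17 measured angiogenic and guidance genes, 2 (11.8%) were over 1.5-fold higher and 9 (52.9%) lower, beside 10.9% and 30.5% over all genes. The median was -0.59, or -0.38 relative to all genes. It was -0.31 over 6 genes without the cells marked by another class, and 0.09 when at least 2 rule genes were enough for a member. The VEGF receptor gene Kdr, also an endothelial marker, was at 3.38 CPM in 1 Alk1 ECKO cell and 48.9 CPM in 43 control cells. The endothelial marker list summed to 47.4 CPM in Alk1 ECKO and 277 CPM in control members, with Tie1 at 0 in Alk1 ECKO, and its part in this list was not tested.

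Hypoxia and glycolysis genes were near level in members, with 7 of 33 (21.2%) over 1.5-fold higher and 6 (18.2%) lower, beside 10.9% and 30.5% over all genes. The median was 0.13, or 0.34 relative to all genes and -0.08 as a mean over cells. In bipolar cells 17 of 32 genes of the list were higher and 1 lower, beside 6.35% and 23.1% over all genes there, with a median of 0.76. Its medians were 0.50 in rods and 0.54 in Müller glia. Bnip3, a mitophagy gene induced by hypoxia, was at 199.5 CPM in Alk1 ECKO and 93.7 CPM in control members, a log2 ratio of 1.09 (0.67 to 1.495), beside 1.72 in bipolar cells, 1.27 in rods and 0.89 in Müller glia. Whether the classes differ was not tested. Of 20 BMP and TGF-beta pathway genes, 2 were higher and 8 lower, beside 10.9% higher and 30.5% lower over all genes, with a median of -0.45, or -0.23 relative to all genes. Id1, a target of BMP signalling, was at 3.38 CPM in 1 Alk1 ECKO cell and 69.0 CPM in 40 control cells, a log2 ratio of -4.35 (-9.66 to -1.86), beside 2.32 in bipolar cells, 1.01 in rods and 1.42 in Müller glia. Id1 led sub-cluster 4, of which 3 cells were from Alk1 ECKO and 36 from control. Of 6 mechanosensitive channel genes, 0 were higher and 3 lower, with a median of -0.59, or -0.37 relative to all genes. Piezo1, the channel gene named in the title of the study, had 0 UMIs in Alk1 ECKO members and 14 UMIs in 4 control members, too few for a ratio.

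**Figure D5:**
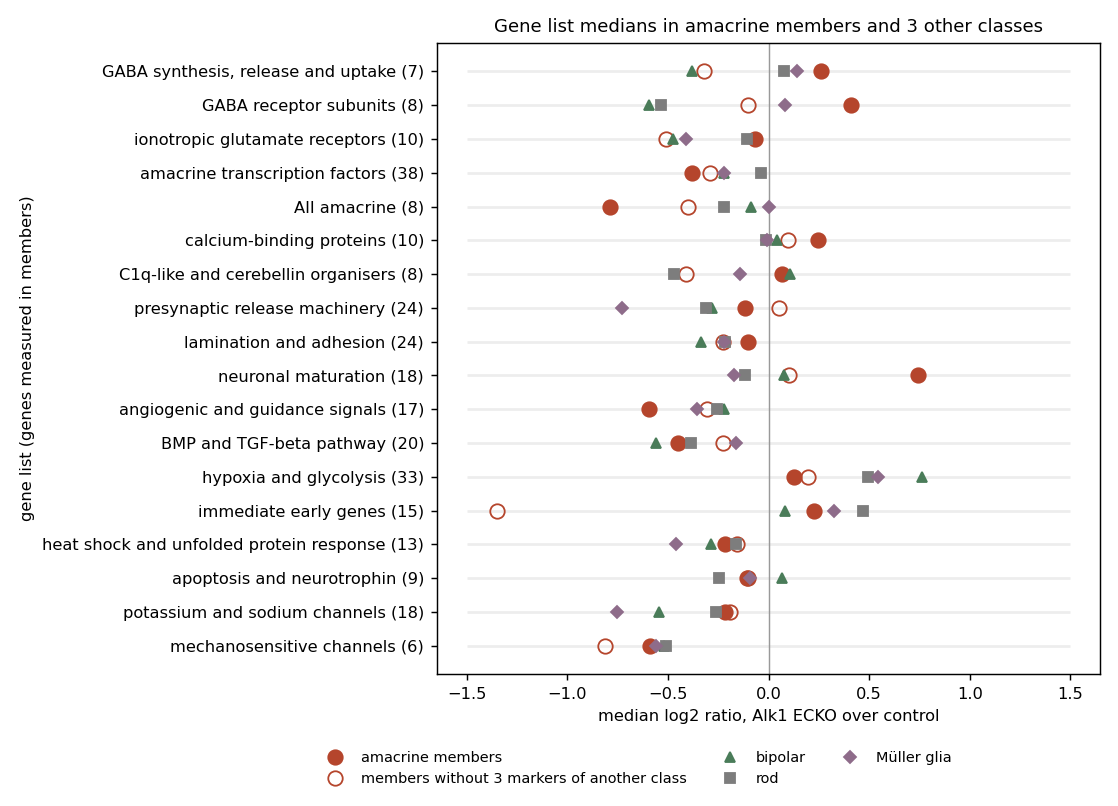
Median log2 ratio, Alk1 ECKO over control, of each gene list with at least 6 measured genes, the rule genes a list holds included, in amacrine members (filled circles), in members without 3 markers of another class (open circles), and in bipolar cells, rods and Müller glia. Neuronal maturation lies at 0.74 in all members and 0.10 without the marked cells, and hypoxia and glycolysis lies at 0.13 in members and 0.76 in bipolar cells.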

How the data were processed

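Single-cell RNA was measured in 1 Alk1 ECKO and 1 control library with a 3′ droplet kit, per the labels. The deposited matrices hold raw UMI counts made by the authors with Cell Ranger. The submitters' processing notes name version 6.1.1 (and FastQC 0.11.9, build mm10), while the matrix headers name 5.0.1. Gene positions were read from the GENCODE M21 annotation of mm10, which matched all 39 genes looked up.

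UMIs were summed over members per library and expressed as CPM. Intervals are exact Poisson for a level, exact conditional binomial for a ratio and exact Clopper-Pearson for a share, at 95%, covering counting error only. In members, 1 UMI is worth 3.38 CPM in Alk1 ECKO and 0.287 CPM in control. Other classes needed at least 3 detected markers and took the class with most; ties were left out. No doublet caller was run. Sub-clusters came from log-normalised counts (scanpy 1.11.5), 1500 variable genes, 12 components, a shared-neighbour graph of 12 neighbours (scikit-learn 1.9.0) and Leiden partition at resolution 1; other steps used numpy 2.4.6, scipy 1.17.1 and pandas 2.3.3. Ratio code was checked on simulated Poisson counts for the Alk1 ECKO over control comparison (8835 genes): intervals covered the true ratio for 96.5% of unchanged genes, and intervals beyond 1.5-fold were recovered for 45.3% of genes at log2 -2, 13.2% at -1, 30.0% at 1 and 96.3% at 2. The intervals assume such counts, so this checks the code only. UMIs of a gene gathered in few cells were not simulated, and the intervals do not cover that spread between cells.

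The members and 24 gene lists (429 genes in the files) were chosen with earlier results of these data known. The report names the rule genes, 20 leading genes, and the 12 highest and 12 lowest ratios with at least 50 UMIs over both libraries, 20 CPM in 1 library and an interval past 1.5-fold. Not eligible were sex-linked, haemoglobin, ribosomal, mitochondrial and predicted genes, and genes at over 5 times the amacrine CPM in another class; genes at 0 UMIs were ordered by their interval bound. In each list the 3 highest and 3 lowest could be named, and in the transmitter comparison the 10 highest and 10 lowest. Pax6, Elavl3, Gap43, Neurod1, Neurod4, Sox4, Sox11, Hif1a, Meis2, Tcf4, Nfib, Ebf1, Stmn2, Sag, Chat, Th, Slc17a8 and Piezo1 lie outside that rule in at least 1 place and were picked with their values in view. Some genes are not reported here.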

Additional observations from a re-analysis of the deposited data

Results flagged for a closer look

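Igf2, which encodes insulin-like growth factor 2, went in opposite directions in members and in Müller glia. It had 0 UMIs in 27 Alk1 ECKO members and 137 UMIs in 10 of 251 control members, of which 92.0% lay in 1 cell. Against a floor of 3 counts it was 3.88-fold lower in Alk1 ECKO, with a log2 interval bound of -1.64. In Müller glia its log2 ratio was 1.66 (1.49 to 1.84). When at least 2 rule genes were enough for a member, the ratio in members was 0.94 (0.63 to 1.25). The difference between the classes was not tested.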

How the results depend on the processing

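No paired analysis was possible because each genotype has 1 library, and for the same reason no replicate could be left out. Of the recomputed shares and counts 88 kept their size and 48 moved. The member share became 1.59% in Alk1 ECKO and 5.80% in control with at least 2 rule genes, 0.579% and 2.07% with at least 4, and 0.541% and 1.26% after thinning each cell to 2000 UMIs. In control alone it was 4.34% with a mitochondrial limit of 5%, 1.90% without members marked by another class and 2.83% with at most 20000 UMIs. The GABAergic share was 75.0% in Alk1 ECKO and 58.0% in control with at least 4 rule genes, and in control 66.7% without marked members and 56.6% with at most 20000 UMIs. In this section each cell was thinned before members were chosen, unlike the thinning of chosen members given with the transmitter classes. The share with both transmitters was 0.0% in Alk1 ECKO without marked members or after thinning, and in control 16.0%, 3.45% and, with at most 20000 UMIs, 22.9%. The glycinergic share in control was 4.86% without marked members. Genes over 1.5-fold higher and lower numbered 1502 and 4354 with at least 2 rule genes, 439 and 944 without marked members, 119 and 120 after thinning, and 406 and 727 in members with Gad1 and without Slc6a9. Higher genes numbered 633 with at most 20000 UMIs, 1642 relative to the median of all genes and 1500 at a minimum of 20 UMIs, and 587 were higher and 1794 lower at a minimum of 100. Genes with the interval beyond 1.5-fold, higher and lower, numbered 820 and 1282 with at least 2 rule genes, 111 and 84 with at least 4, 25 and 57 without marked members, 7 and 5 after thinning, 133 and 144 without microglia-marked members, 23 and 41 in members with Gad1 and without Slc6a9, and 349 and 119 relative to the median. With at most 20000 UMIs 112 were higher. Genes over 2-fold lower in glycinergic cells numbered 1605 without marked members. The log2 ratio turned to -0.0899 for Snhg11 without marked members and -0.0586 with at most 20000 UMIs. After thinning it was -0.0183 for Snhg11, 0.0795 for Prox1, 0.94 for Nfix, -0.0519 for Gap43, 0.16 for Neurod4 and -0.0351 for Uchl1, and in members with Gad1 and without Slc6a9 it was 0.17 for Neurod1. Part of these moves follows from fewer cells and genes tested, for example 13 Alk1 ECKO and 87 control members after thinning. The other causes were not tested. Alternatives with the microglia-marked cells left out, a limit of 20000 UMIs, the Gad1 split and lists without the rule genes were chosen after seeing the data. The median log2 ratio of the neuropeptide list, 1.61 over 3 genes in all members, turned to -1.85 with at least 4 rule genes, -3.65 without marked members, -1.63 with at most 20000 UMIs and -1.74 in members with Gad1 and without Slc6a9, each over 3 genes. That of neuronal maturation turned to -0.0342 over 12 genes after thinning, and that of the AII list to 0.47 over 3 genes in members with Gad1 and without Slc6a9. Of the recomputed list medians 285 lay between the medians of their genes' interval bounds, 18 moved out of them and 6 changed sign. Of the gene ratios 326 stayed within their interval, 145 moved out of it and 9 changed sign. A change of sign was counted only for lists whose bounds had the same sign and genes whose interval lay beyond 1.5-fold. Other changes of sign are among the values that stayed or moved.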

Other observations

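Immediate early genes lay in both directions in the members. Of 15 measured, 6 were over 1.5-fold higher and 5 lower in Alk1 ECKO, beside 10.9% higher and 30.5% lower over all genes. The lower share was close to that over all genes. The median log2 ratio of the list was 0.23, or 0.44 relative to all genes. It was -1.35 over 8 genes without the members marked by another class. Zfp36 was at 101.5 CPM in 3 Alk1 ECKO members and 12.4 CPM in 13 control members, while Jun was at 216.5 CPM in 7 Alk1 ECKO members and 483 CPM in 139 control members, a log2 ratio of -1.16 (-1.54 to -0.80) beside -1.02 in bipolar cells and -1.14 in rods. Genes of heat shock and the unfolded protein response had 0 of 13 higher and 3 (23.1%) lower, beside 10.9% higher and 30.5% lower over all genes, with a median of -0.22, or -0.0018 relative to all genes. Atf4, a transcription factor of the stress response, was at 196 CPM in Alk1 ECKO and 409 CPM in control members.

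Some peptide genes rested on a single Alk1 ECKO member. Vip had 13 UMIs in 1 Alk1 ECKO member and 5 UMIs in 3 control members, and Crh had 16 UMIs in 1 Alk1 ECKO member and 0 UMIs in control. Sst had 0 UMIs in Alk1 ECKO and 19 UMIs in 1 control member.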
